A study of Mus musculus with 12 samples.

Results

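The genes described here are 10 genes of the ATF4 branch of the integrated stress response, followed in M2-like mouse macrophages exposed to interferon beta (IFNβ). They were taken by symbol from the count matrix, as Atf4, Atf3, Ddit3, Nupr1, Trib3, Chac1, Asns, Psat1, Phgdh and Sesn2. All 10 were found among the 56748 genes listed, and all 10 were among the 15033 genes that passed the filter on low counts. A second gene that also carries the symbol Ddit3 had 0 counts in every library, so Ddit3 stands for the counted gene, ENSMUSG00000025408.

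The integrated stress response is a cell's answer to amino acid shortage, unfolded protein, double-stranded RNA or heme loss. Different kinases sense these stresses and phosphorylate the translation factor eIF2α, which lowers protein synthesis in general but lets the Atf4 message be translated. ATF4 is a transcription factor that turns on further transcription factors and enzymes that make or import amino acids. Atf4 is set in large part by translation, so its mRNA level is not a measure of the protein.

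The cells were bone marrow-derived macrophages (BMDM) of female C57BL/6J mice, grown with 20 ng/mL M-CSF and polarized to an M2-like state with 10 ng/mL IL4 for 48 hours, and these steps were common to all 4 conditions. For 72 hours they then received no addition (untreated control), supernatant of YUMM5.2 eGFP tumor cells (eGFP supernatant), supernatant of YUMM5.2 Ifnb1eGFP tumor cells with 1500 pg/mL IFNβ (Ifnb1eGFP supernatant), or recombinant IFNβ at 1500 pg/mL (rIFNβ). YUMM5.2 is a mouse melanoma line, transduced here with a lentiviral vector whose doxycycline-responsive promoter drives Ifnb1 and eGFP or eGFP alone, and both kinds of donor cell had been kept in 1 μg/mL doxycycline (Dox) for 72 hours. Each condition had 3 libraries, 12 in all, described as 3 mice for each condition, and whether 1 mouse gave cells to several conditions is not given in the sources used here. The study bought its mice aged 10 to 12 weeks. The donor cells of each supernatant were 1 engineered line, so the Ifnb1eGFP and eGFP supernatants can also differ in anything else that differs between those lines.

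Library totals ran from 31526034 to 45348457 counts. The unit of level is CPM, in which each library is brought to a total of 1000000 after TMM scaling, an adjustment for differences in RNA composition. A set of 6 macrophage markers summed to between 8515 and 18394 CPM in every library, and sums for T cell, B cell, erythroid and dendritic cell markers stayed below 0.5 CPM, while 3 fibroblast markers summed to between 26.7 and 74.4 CPM. The macrophage sum was 14063 to 15212 CPM in untreated control, 17815 to 18394 CPM after eGFP supernatant, 9155 to 9286 CPM after Ifnb1eGFP supernatant and 8515 to 8618 CPM after rIFNβ. The fall of the macrophage sum came from Lyz2, from 9415 CPM in untreated control to 3472 CPM after rIFNβ, and Itgam, from 1454 to 323 CPM. The other 4 macrophage markers were not lower, as Adgre1 had 1562 and 1775 CPM, Cd68 1240 and 1750 CPM, Csf1r 1045 and 1120 CPM and Mertk 112 and 139 CPM in those conditions. Of the markers of the M2-like state, Mrc1 had 660 CPM in untreated control and 723 CPM after rIFNβ, Chil3 72.8 and 116 CPM and Retnla 60.2 and 55.2 CPM. Arg1, another such marker, was near the floor, with 0.456 and 0.261 CPM. Of the fibroblast markers, Dcn had 9.92 CPM in untreated control and 25.3 CPM after rIFNβ, Col1a1 16.6 and 7.90 CPM and Col1a2 24.9 and 21.2 CPM. A set of 3 neutrophil markers summed to 4.28 to 5.72 CPM without IFNβ and to 0.119 to 0.707 CPM with it. The fall of this sum came from S100a8 alone, from 5.03 CPM in untreated control to 0.272 CPM after rIFNβ. S100a9 had 0.00789 and 0.0655 CPM and Ly6g 0 and 0.0427 CPM in those conditions, near the floor and not lower after rIFNβ. The macrophage and neutrophil sums therefore moved with IFNβ, as did Dcn and Col1a1, and their part in the results was not tested. In bulk RNA, fewer cells of a type and less RNA per cell cannot be told apart. A set of 6 interferon-stimulated genes summed to 68.0 to 99.5 CPM in untreated control, 5718 to 6114 CPM after Ifnb1eGFP supernatant and 6142 to 6546 CPM after rIFNβ. One library stood apart, as eGFP supernatant replicate 2 had a sum of 417 CPM. The comparisons that use this library were also run without it.

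The question put to these genes was whether IFNβ, from tumor cells or recombinant, moved them in macrophages, and whether tumor cell supernatant moved them by itself. Of the 10 genes, 5 were higher and 3 lower with Ifnb1eGFP than with eGFP supernatant (edgeR's quasi-likelihood test, adjusted p of at most 0.05). With rIFNβ against untreated control 5 were again higher and 3 lower. In both comparisons Atf4, Ddit3, Nupr1, Trib3 and Sesn2 rose, Atf3, Psat1 and Phgdh fell, and Chac1 and Asns did not pass the test. Without eGFP supernatant replicate 2 the first comparison still held 5 higher and 3 lower genes, with log2 fold changes of 0.30 for Atf4, -0.32 for Atf3, 2.72 for Ddit3, 3.53 for Nupr1, -1.86 for Psat1, -0.85 for Phgdh and 0.44 for Sesn2. Over all genes tested, 30.1% were called higher and 25% lower between the supernatants, and 30.7% and 24.6% between rIFNβ and untreated control. With a background of that size the number of genes called is a description of these 10 and not a property that sets them apart. Their median log2 fold change was 0.14 for Ifnb1eGFP against eGFP supernatant, where all genes had 0.03, and 0.28 for rIFNβ against untreated control, where all genes had 0.04. At the stricter thresholds of the study, which ask for a log2 change of 2 or more in size and an adjusted p no higher than 0.01, Ddit3 and Nupr1 passed in both comparisons and Psat1 in the second. The same thresholds took 5.39% of all genes between the supernatants and 5.77% for rIFNβ.

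**Figure D1:**
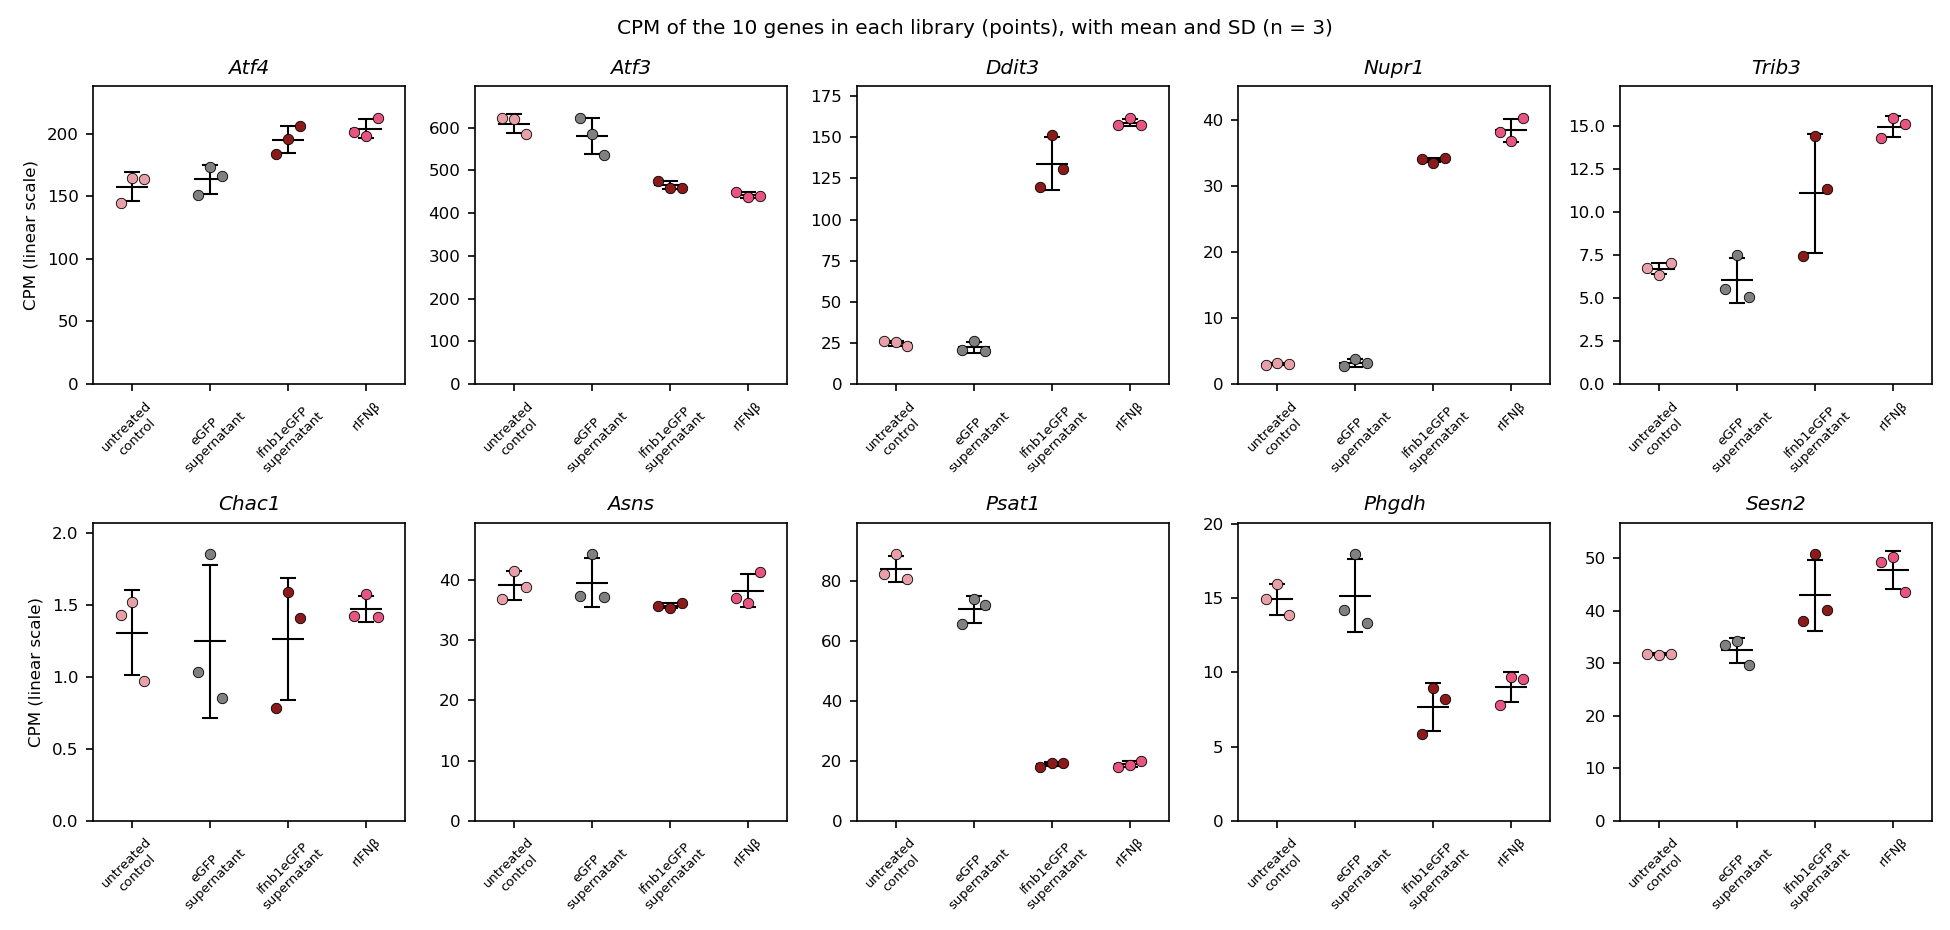
CPM of each of the 10 genes (linear axis from 0, a scale of its own for each gene) in the 3 libraries of each condition, with bars for the mean and SD. For Ddit3 and Nupr1 the 6 libraries with IFNβ lie far above the 6 without, for Psat1 far below, and for Chac1 and Asns the libraries overlap.

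The transcription factors at the head of the response did not move alike. Atf4 encodes the central factor and lies at chr15:80139372-80141745 on the plus strand (GRCm39). It had 145, 165 and 164 CPM in untreated control, 151, 174 and 166 CPM after eGFP supernatant, 184, 196 and 206 CPM after Ifnb1eGFP supernatant and 201, 198 and 212 CPM after rIFNβ. The lowest of the 6 libraries with IFNβ lay above the highest of the 6 without. The share of all genes that separated in this way was not counted, here or for the other genes below. The rise was small: the log2 fold change was 0.26 ± 0.07 (SE, adjusted p = 0.00807) between the supernatants and 0.37 ± 0.07 (SE, adjusted p = 0.000711) for rIFNβ against untreated control.

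Ddit3 encodes CHOP, a transcription factor induced by ATF4 and known for its part in stress-induced cell death. The gene lies at chr10:127124268-127132163 on the plus strand. It had 26.0, 25.3 and 23.1 CPM in untreated control, 20.5, 26.4 and 20.1 CPM after eGFP supernatant, 120, 152 and 131 CPM after Ifnb1eGFP supernatant and 158, 162 and 157 CPM after rIFNβ. Every library with IFNβ lay far above every library without it. The level was 6.00-fold higher with Ifnb1eGFP than with eGFP supernatant (log2 fold change 2.58 ± 0.11, SE, adjusted p = 6.51e-09) and 6.41-fold higher with rIFNβ than in untreated control (2.68 ± 0.11, SE, adjusted p = 4.41e-09). Ddit3 overlaps Mars1 and Mbd6 on the opposite strand, and whether the counting used the strand of the reads is not given in the sources used here. Mars1 fell, with log2 fold changes of -0.17 (adjusted p = 0.0152) and -0.14 (adjusted p = 0.0384) in the 2 comparisons, and Mbd6 had values of -0.44 (adjusted p = 0.0673) and -0.11 (adjusted p = 0.652), so neither neighbour showed the rise of Ddit3. Without eGFP supernatant replicate 2 Mars1 had -0.16 (adjusted p = 0.0583) and -0.14 (adjusted p = 0.0503), and it passed in neither comparison.

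Atf3 encodes a stress-induced factor of the same family and lies at chr1:190902493-190950241 on the minus strand. Its libraries had 623, 621 and 584 CPM in untreated control, 621, 584 and 537 CPM after eGFP supernatant, 476, 459 and 460 CPM after Ifnb1eGFP supernatant and 450, 438 and 439 CPM after rIFNβ. The 6 libraries with IFNβ were all below the 6 without, the opposite direction to Atf4. Atf3 fell by 0.32 on the log2 scale between the supernatants (SE 0.05, adjusted p = 0.000322) and by 0.46 with rIFNβ (adjusted p = 1.84e-05).

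Nupr1 and Trib3 act beside or below CHOP. Nupr1 encodes a small stress-induced chromatin protein (chr7:126222414-126230033, minus strand), and it showed the largest fold change of the 10 genes. It had 2.92, 3.22 and 3.03 CPM in untreated control, 2.70, 3.87 and 3.16 CPM after eGFP supernatant, 34.1, 33.6 and 34.3 CPM after Ifnb1eGFP supernatant and 38.2, 36.9 and 40.4 CPM after rIFNβ. The libraries fell into a low and a high group with nothing between. Nupr1 was 10.4-fold higher with Ifnb1eGFP than with eGFP supernatant (log2 fold change 3.38 ± 0.10, SE, adjusted p = 5.38e-10) and 12.6-fold higher with rIFNβ than in untreated control (adjusted p = 3.16e-10). Ordered by log2 fold change over the 15033 genes tested, Nupr1 was number 184 from the top and Ddit3 number 307 between the supernatants, and 190 and 320 for rIFNβ.

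Trib3 encodes a pseudokinase that is induced by ATF4 and CHOP and feeds back on ATF4 (chr2:152179337-152191958, minus strand). Its values were 6.74, 6.38 and 7.05 CPM in untreated control, 5.56, 7.53 and 5.04 CPM after eGFP supernatant, 7.48, 14.4 and 11.4 CPM after Ifnb1eGFP supernatant and 14.3, 15.5 and 15.2 CPM after rIFNβ. Ifnb1eGFP supernatant replicate 1 lay just below eGFP supernatant replicate 2, so the supernatant groups overlapped, while the rIFNβ group lay wholly above the untreated control. The log2 fold change was 0.88 ± 0.21 (SE, adjusted p = 0.0036) between the supernatants and 1.16 for rIFNβ against untreated control (adjusted p = 0.000515). Without eGFP supernatant replicate 2 the first was 1.07 (adjusted p = 0.00206).

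The downstream enzymes went the other way or did not pass the test. Psat1 and Phgdh encode phosphoserine aminotransferase and phosphoglycerate dehydrogenase, consecutive enzymes that make serine from a glycolysis intermediate. Psat1 (chr19:15882039-15924701, minus strand) had 82.6, 89.0 and 80.6 CPM in untreated control, 65.6, 74.2 and 72.0 CPM after eGFP supernatant, 18.1, 19.3 and 19.4 CPM after Ifnb1eGFP supernatant and 18.0, 18.7 and 20.0 CPM after rIFNβ. The 6 libraries with IFNβ were close to each other, from 18.0 to 20.0 CPM, and far below the others. Psat1 was 3.73-fold lower with Ifnb1eGFP than with eGFP supernatant (log2 fold change -1.90 ± 0.06, SE, adjusted p = 1.03e-09) and 4.45-fold lower with rIFNβ than in untreated control (-2.15, adjusted p = 4.14e-10).

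Phgdh (chr3:98220484-98255047, minus strand), which catalyses the first step of the pathway, had 14.9, 16.0 and 13.9 CPM in untreated control, 14.2, 18.0 and 13.4 CPM after eGFP supernatant, 5.84, 8.94 and 8.21 CPM after Ifnb1eGFP supernatant and 7.83, 9.67 and 9.55 CPM after rIFNβ. All libraries with IFNβ were below all libraries without, by a smaller factor than for Psat1. The log2 fold change was -0.99 ± 0.16 (SE, adjusted p = 0.000251) between the supernatants and -0.72 (adjusted p = 0.00213) for rIFNβ. Of its deposited values 75% were not whole numbers, so part of its reads had been shared with other loci, and the counts of the pseudogene Phgdh-ps1 were 0.

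Asns encodes asparagine synthetase (chr6:7671667-7728461, minus strand), a standard target of ATF4. It had 36.9, 41.6 and 39.0 CPM in untreated control, 37.3, 44.3 and 37.2 CPM after eGFP supernatant, 35.8, 35.4 and 36.2 CPM after Ifnb1eGFP supernatant and 37.1, 36.3 and 41.4 CPM after rIFNβ. The log2 difference was -0.15 (95% interval -0.31 to 0.02, adjusted p = 0.127) between the supernatants and -0.03 (-0.20 to 0.13, adjusted p = 0.735) for rIFNβ. Neither interval reached a change of the size seen for Psat1 or Ddit3. The supernatant groups did not overlap, with the Ifnb1eGFP libraries lower by a small amount that did not pass the test. Without eGFP supernatant replicate 2, which had 44.3 CPM, the difference was -0.06 (adjusted p = 0.517).

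Chac1 encodes an enzyme that breaks down glutathione (chr2:119180757-119184866, plus strand), and it was the least abundant of the 10 genes, with 31 to 76 counts per library. It had 1.43, 1.52 and 0.970 CPM in untreated control, 1.04, 1.85 and 0.853 CPM after eGFP supernatant, 0.784, 1.59 and 1.41 CPM after Ifnb1eGFP supernatant and 1.42, 1.57 and 1.41 CPM after rIFNβ. The groups overlapped throughout, and the coefficient of variation was 22.6% in untreated control, 42.6% after eGFP supernatant, 33.5% after Ifnb1eGFP supernatant and 6.08% after rIFNβ. The log2 difference was 0.02 (95% interval -0.69 to 0.72, adjusted p = 0.968) between the supernatants and 0.18 (-0.53 to 0.89, adjusted p = 0.665) for rIFNβ, so changes within these bounds could not be told from 0 with this spread. Without eGFP supernatant replicate 2 the first value was 0.42 (adjusted p = 0.286).

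Sesn2 encodes sestrin 2, which holds back mTORC1 signalling when leucine is short (chr4:132219335-132237815, minus strand). It had 31.8, 31.5 and 31.8 CPM in untreated control, 33.4, 34.1 and 29.6 CPM after eGFP supernatant, 38.0, 50.7 and 40.0 CPM after Ifnb1eGFP supernatant and 49.2, 50.2 and 43.5 CPM after rIFNβ. The 6 libraries with IFNβ were above the 6 without. The log2 fold change was 0.41 ± 0.10 (SE, adjusted p = 0.00517) between the supernatants and 0.59 (adjusted p = 0.000414) for rIFNβ.

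**Figure D2:**
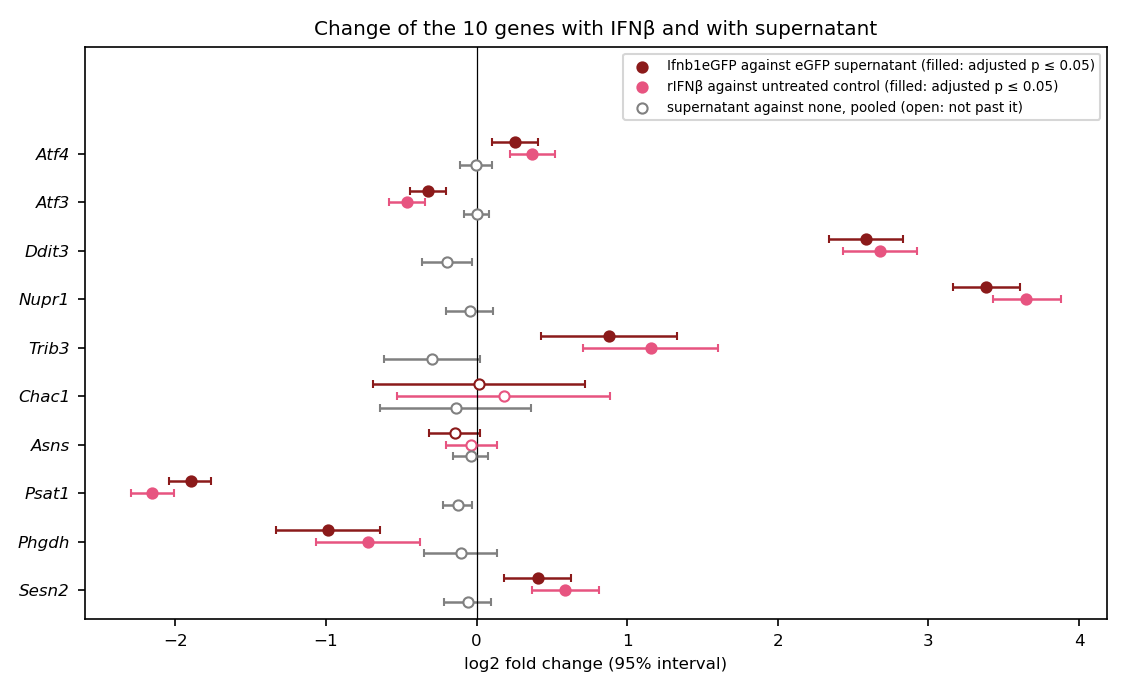
Log2 fold change (horizontal axis) with its 95% interval for each of the 10 genes, for the 2 supernatants set against each other, for rIFNβ against untreated control, and for supernatant against no supernatant pooled over both IFNβ states. Filled points passed an adjusted p of 0.05: 8 genes lie away from 0 on the same side in both IFNβ comparisons, and all 10 pooled supernatant values are open.

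The promoters show which of these genes carry the short element that ATF4 paired with a C/EBP protein such as CHOP is known to bind. All 10 genes matched RefSeq promoter windows (GRCm38.p6, 250 bases before to 50 after each gene's start), which were searched on both strands for TGATGNAA, and 5 of the 10 genes held it, against 4.51% of 27025 genes and 3.97% of 32851 promoters with such a window. The match and its 10 neighbours on either side are shown for these 5 genes, 5′ to 3′ on the strand that reads the element, with the element in capitals.
Atf3: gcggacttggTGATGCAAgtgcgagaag
Nupr1: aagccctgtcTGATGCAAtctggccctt
Trib3: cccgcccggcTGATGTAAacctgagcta
Chac1: ctggcaggagTGATGCAAcggcagggaa
Asns: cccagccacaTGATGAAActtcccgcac
The windows lie at chr1:191183426-191183453 on the plus strand for Atf3, chr7:126625563-126625590 on the plus strand for Nupr1, chr2:152344029-152344056 on the plus strand for Trib3, chr2:119351039-119351066 on the minus strand for Chac1 and chr6:7693215-7693242 on the minus strand for Asns. The element reads on the strand of the gene in Asns and on the opposite strand in the other 4. The 5 genes with these letters included Nupr1 and Trib3, which rose, Atf3, which fell, and Asns and Chac1, which did not pass the test. Atf4, Ddit3, Psat1, Phgdh and Sesn2 did not have the letters in this window. A match is a description of the sequence and not a binding site. Of 69 genes with such a window from the lists described below, 9 held the letters. The 10 genes were picked as genes of the ATF4 response. Their share beside that of all genes is therefore a description and not a result.

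Tumor cell supernatant without added IFNβ moved none of the 10 genes past the test. The donor cells of both supernatants had been kept in Dox, so supernatant against none also sets any Dox left in it against none. The part of such Dox was not tested. For eGFP supernatant against untreated control, 0 of 10 were called by edgeR's quasi-likelihood test and 1, Psat1, had an unadjusted p under 0.05, while 0.246% of all genes were called higher and 0.0532% lower. Psat1 was lower in all 3 libraries with eGFP supernatant than in all 3 of the untreated control, with a log2 difference of -0.25 (95% interval -0.38 to -0.12, adjusted p = 0.161), and DESeq2 called it at an adjusted p of 0.031. The other 9 values lay between -0.15 for Trib3 and Ddit3 and 0.09 for Nupr1, with groups that overlapped. Without eGFP supernatant replicate 2 they lay between -0.46 for Chac1 and 0.0077 for Atf4, with -0.34 for Trib3, -0.29 for Ddit3 and -0.06 for Nupr1, and 0 of the 10 genes were called.

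The supernatant effect pooled over both IFNβ states called 0 of the 10 genes, with 0.692% of all genes higher and 0.213% lower. Psat1 had a pooled log2 difference of -0.12 (95% interval -0.22 to -0.03, adjusted p = 0.294) and Ddit3 of -0.20 (-0.36 to -0.03, adjusted p = 0.341), and these 2 were the only ones with an unadjusted p under 0.05. By DESeq2 the pooled count was also 0.

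The 2 sources of IFNβ, set against each other, differed in none of the 10 genes by the same test, where 0.14% of all genes were called higher and 0.02% lower with Ifnb1eGFP supernatant than with rIFNβ. Ddit3 and Trib3 had an unadjusted p under 0.05, with log2 differences of -0.25 (95% interval -0.47 to -0.02, adjusted p = 0.578) and -0.43 (-0.868 to -0.001, adjusted p = 0.581). All 3 Ifnb1eGFP supernatant libraries lay below all 3 rIFNβ libraries for Ddit3, Nupr1 and Asns and above them for Atf3. How many of all genes separated in this way was not counted, so no difference between the sources is read from it. Psat1 had a difference of 0.00 (-0.14 to 0.14). The outcome moved with 1 library. Without Ifnb1eGFP supernatant replicate 2, Sesn2 was lower with the supernatant by 0.29 on the log2 scale (log2 fold change -0.29, adjusted p = 0.0446), and over all genes 194 were called higher and 857 lower in place of 21 and 3. DESeq2 called 0 of the 10 genes here.

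The interaction, which tests whether IFNβ changed a gene by a different amount in the supernatant than as rIFNβ, called 0 of the 10 genes and 0% of all genes. The value for Psat1 was 0.25 (95% interval 0.06 to 0.45, adjusted p = 0.926), and it was the only one of the 10 with an unadjusted p under 0.05. DESeq2 called 0 of the 10 as well.

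Levels were compared between genes as CPM per kilobase of the canonical transcript, since longer transcripts collect more reads. In untreated control the order was Atf3 with 307 CPM per kilobase, Atf4 with 90.6, Psat1 with 32.1, Ddit3 with 25.4, Sesn2 with 9.09, Asns with 7.99, Phgdh with 7.89, Nupr1 with 3.69, Trib3 with 3.22 and Chac1 with 0.787. Asns (SD 0.485) and Phgdh (SD 0.546) did not differ beyond their spread, n = 3 each. With rIFNβ Ddit3 stood second with 162 CPM per kilobase and Nupr1 next after Atf4 with 46.4, while Atf3 led with 223 and Atf4 had 117. Psat1 had moved from the third to the seventh place with 7.21, beside Asns with 7.80 and Trib3 with 7.17. The order with Ifnb1eGFP supernatant had the same 4 leading genes, Atf3, Ddit3, Atf4 and Nupr1, at 234, 137, 112 and 41.0 CPM per kilobase.

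Libraries of 1 condition also varied together for some of these genes. In eGFP supernatant replicate 2, all 10 genes were above the mean of their condition on the log2 CPM scale, by 0.01 to 0.63 with a median of 0.21, while 53.2% of all genes tested were above it. In Ifnb1eGFP supernatant replicate 1, 7 of the 10 were below it, the lowest at -0.60, and in Ifnb1eGFP supernatant replicate 2, 7 were above it, the highest at 0.43. The rIFNβ libraries stayed between -0.20 and 0.12. Over the 12 libraries, Pearson's r of log2 CPM was positive for 23 of the 45 pairs of these genes, with a median of 0.19, and this mostly reflects the step between libraries with and without IFNβ. With each library set against the mean of its condition, r was positive for 36 pairs with a median of 0.47, and without eGFP supernatant replicate 2 for 27 pairs with a median of 0.19. The pair Psat1 and Ddit3 went from -0.98 over the 12 libraries to 0.51 within conditions. Ddit3, Trib3, Chac1 and Phgdh kept r values above 0.7 with each other within conditions also without that library, as 0.88 for Ddit3 with Chac1 and 0.84 for Trib3 with Phgdh. They were named after the values were seen. All of them deviated down in Ifnb1eGFP supernatant replicate 1 and up in replicate 2, as -0.595 and 0.38 for Chac1 and -0.514 and 0.428 for Trib3. The same r was not computed for pairs of all genes tested. These r values share libraries and depth and are given as a description.

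**Figure D3:**
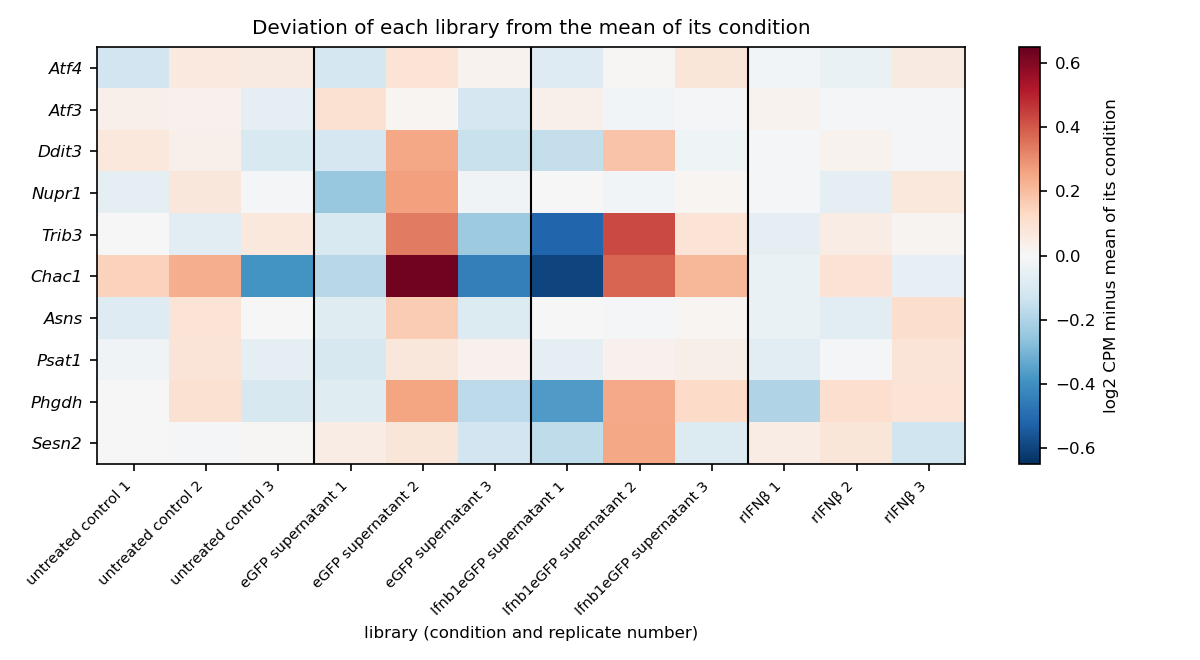
Difference of log2 CPM from the mean of the condition (color scale) for each of the 10 genes (rows) in each of the 12 libraries (columns, with lines between conditions). The column of eGFP supernatant replicate 2 is red in all 10 rows, and Trib3 and Chac1 hold the largest deviations, between -0.60 and 0.63.

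Over the 12 libraries the gene whose log2 CPM was most like that of Ddit3 was Psmb8, a subunit of the immunoproteasome, with r = 0.998. For Nupr1 it was Oas1c, of the family of oligoadenylate synthetases, with r = 0.999. The closest to Psat1 was Pdk1, a kinase that inhibits pyruvate dehydrogenase, with r = 0.999. Phgdh had Tubb5 (0.982) and Myc (0.982) among the nearest to it, Trib3 had Xab2 (0.996), Vps72 (0.988) and Aars1 (0.987), and Sesn2 had Tmem184b (0.991). Asns had Cars1, a tRNA synthetase, among its 3 closest at 0.871, and Chac1 had none above 0.871. Since the libraries form 2 clusters, with and without IFNβ, an r near 1 mostly says that a gene moved with that step.

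The rest of the pathway was followed in 7 lists with 103 genes, of which 100 were tested and Fgf21, Cbs and Cth were too low. Between the supernatants 25 of the 100 were higher and 40 lower, and with rIFNβ 27 were higher and 37 lower. The median log2 fold change over the 100 was -0.08 and -0.02. When eGFP supernatant replicate 2 was left out, 25 were higher and 33 lower between the supernatants. These counts stand against the background of all genes given above.

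Of the kinases that phosphorylate eIF2α, Eif2ak2, which encodes the double-stranded RNA sensor PKR and is itself an interferon-stimulated gene, rose from 59.5 ± 16.4 CPM to 224 ± 22.9 CPM (SD, n = 3) between the supernatants and from 48.8 ± 7.72 CPM to 208 ± 4.37 CPM after rIFNβ. Its log2 fold changes were 1.91 (adjusted p = 2.55e-06) and 2.09 (adjusted p = 1.22e-06), and the first was 2.15 (adjusted p = 5.01e-07) without eGFP supernatant replicate 2. Eif2ak3, which encodes the endoplasmic reticulum sensor PERK, fell in both comparisons, from 33.8 ± 1.44 CPM to 19.5 ± 0.812 CPM (SD, n = 3) and from 31.6 ± 0.926 CPM to 17.4 ± 0.551 CPM (log2 fold changes -0.79 and -0.86, adjusted p = 1.93e-07 and 9.53e-08). Eif2ak4, which encodes the amino acid sensor GCN2, fell as well, with -0.48 in both (adjusted p = 5.54e-05 and 5.48e-05). Eif2ak1, which encodes the heme-regulated kinase, had values of 0.06 (adjusted p = 0.386) and 0.08 (adjusted p = 0.231). Ppp1r15a, which encodes the inducible phosphatase subunit GADD34 and is known as a target of ATF4 and CHOP, had 28.5 ± 2.23 CPM and 28.6 ± 4.11 CPM (SD, n = 3) with the supernatants, a log2 difference of 0.00 (adjusted p = 0.981). Over the 15 genes of eIF2α kinases and eIF2 control, 5 were higher and 5 lower in each comparison, and Impact, which encodes an inhibitor of GCN2 activation, was among the lower ones (-0.47, adjusted p = 1.24e-05, between the supernatants). Without eGFP supernatant replicate 2, 5 of the 15 were higher and 4 lower between the supernatants.

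The amino acid transporters held 2 higher and 6 lower genes of 12 in each comparison. Slc7a11, the cystine transporter subunit xCT, fell 7.52-fold between the supernatants (log2 fold change -2.91, adjusted p = 1.67e-08) and 8.78-fold with rIFNβ, and Slc1a5, a glutamine transporter, 2.77-fold in both. Slc3a2, the partner chain that xCT and other transporters share, rose 2.17-fold and 2.11-fold. The 20 cytosolic aminoacyl-tRNA synthetases were split, with 8 higher and 5 lower in each comparison. Without eGFP supernatant replicate 2 these counts were 8 and 3 between the supernatants and 8 and 4 with rIFNβ. Kars1 rose 1.57-fold between the supernatants, and Eprs1 fell 1.42-fold. Their median log2 fold changes were 0.02 and 0.01.

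Among 12 enzymes of serine, one-carbon, proline and cysteine metabolism tested, 2 were higher and 6 lower between the supernatants, and 3 and 6 with rIFNβ. Without eGFP supernatant replicate 2, 3 were higher and 4 lower between the supernatants. Gpt2 (alanine aminotransferase, -1.09, adjusted p = 3e-07) and Mthfd1l (mitochondrial formate synthesis, -0.89, adjusted p = 1.28e-06) fell between the supernatants, as Psat1 and Phgdh did, and Got1, an aspartate aminotransferase, rose by 0.44 on the log2 scale (adjusted p = 1.26e-05). The third serine enzyme, Psph, chosen after its values were seen, fell as well (-0.29, adjusted p = 0.00951, and -0.33, adjusted p = 0.00521). Without eGFP supernatant replicate 2 the first value of Psph was -0.23 (adjusted p = 0.0487). Mthfd2, a one-carbon enzyme also chosen after its values were seen, rose in that fit. It had 0.24 (adjusted p = 0.00247) between the supernatants and 0.30 (adjusted p = 0.000206) with rIFNβ.

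A further list of 18 genes tested held other partners and targets of ATF4 and CHOP, together with paralogs of the genes above. The paralogs were Sesn1 and Sesn3 of Sesn2, Trib1 and Trib2 of Trib3, and Chac2 of Chac1. In this list 3 were higher and 8 lower between the supernatants, and 5 and 6 with rIFNβ. Without eGFP supernatant replicate 2, 3 were higher and 6 lower between the supernatants. These are counts of the whole list and not of ATF4 and CHOP targets alone. Sesn1, which encodes another sestrin, fell 2.08-fold and 2.14-fold while Sesn2 rose. Herpud1, of the degradation of endoplasmic reticulum proteins, and the death receptor gene Tnfrsf10b, a known CHOP target, also fell (-0.93, adjusted p = 1.09e-06, and -0.57, adjusted p = 0.000444, between the supernatants). The 3 genes that rose between the supernatants, named after their values were seen, were Stc2 (stanniocalcin 2), Trib1 (a paralog of Trib3) and Sesn3 (another sestrin). Stc2 was near the limit of detection, with 0.0666 CPM after eGFP and 0.579 CPM after Ifnb1eGFP supernatant (adjusted p = 0.000593), and Trib1 rose by 0.47 (adjusted p = 0.0107) and Sesn3 by 0.29 (adjusted p = 0.0011) on the log2 scale.

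The 16 chaperones and genes of the other unfolded protein response branches had 3 higher and 9 lower between the supernatants, and 3 and 8 with rIFNβ. Sdf2l1 fell 2.78-fold, Calr (calreticulin) 1.95-fold and Hsp90b1 (GRP94) 1.70-fold between the supernatants. Without eGFP supernatant replicate 2, 3 were higher and 9 lower between the supernatants. The higher ones, named after their values were seen, were Ern1 (IRE1), Atf6 and Pdia4. Ern1 had 0.65 (adjusted p = 0.000123), Atf6 0.515 (adjusted p = 4.07e-05) and Pdia4 0.205 (adjusted p = 0.0205), while Xbp1 had -0.009 (adjusted p = 0.92). In that fit Ern1 had 0.63 and Atf6 0.44 with rIFNβ. The list for the mitochondrial relay, which carries stress in mitochondria to eIF2α kinases, also held mitochondrial proteases and chaperones. Of its 7 genes 2 were higher and 1 lower between the supernatants. Dele1 (0.40, adjusted p = 0.00577) and Oma1 (0.14, adjusted p = 0.0228) were higher and the chaperonin Hspd1 (-0.46, adjusted p = 6.83e-06) lower. Oma1 no longer passed without eGFP supernatant replicate 2 (0.12, adjusted p = 0.0859). With rIFNβ 1 was higher and 1 lower, and Oma1 had a value of 0.09 (adjusted p = 0.0996).

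**Figure D4:**
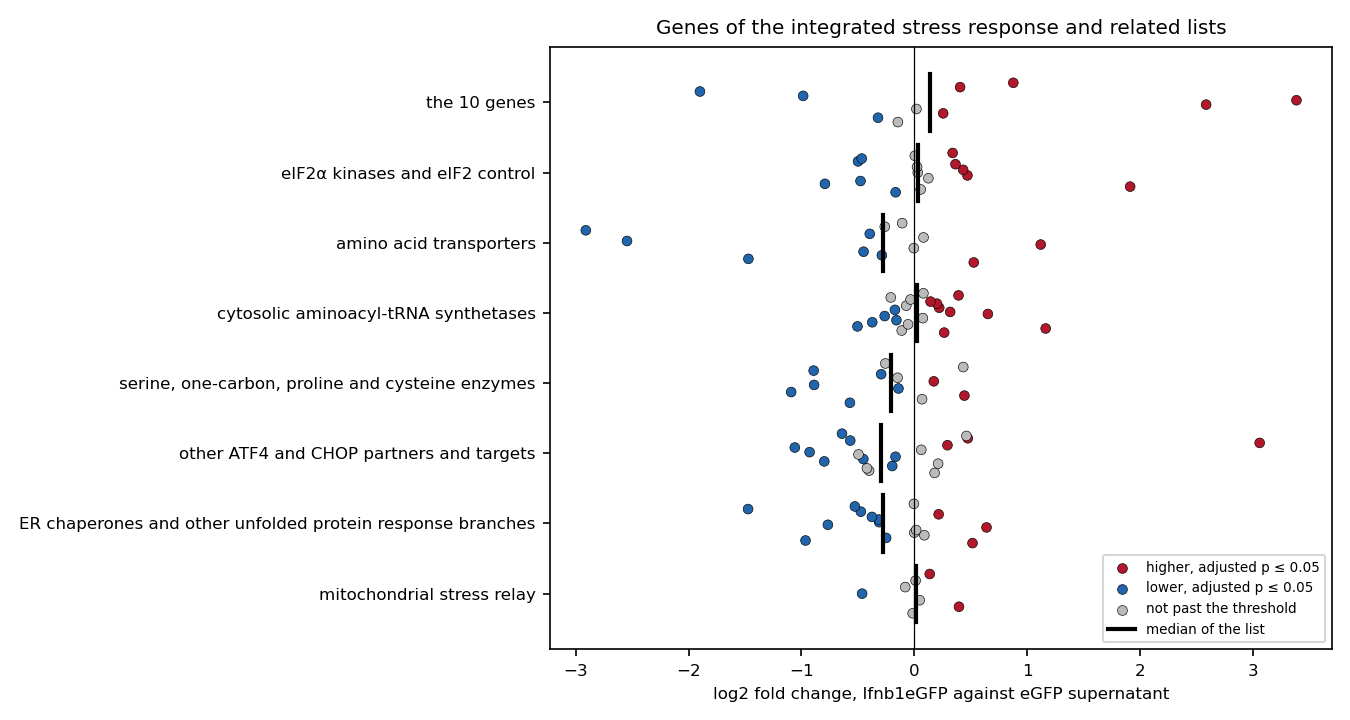
Log2 fold change of Ifnb1eGFP against eGFP supernatant (horizontal axis) for the 10 genes and for the genes of the 7 lists (rows), with red for higher and blue for lower where the adjusted p was 0.05 or less, gray for genes that did not pass, and a black line at the median of each list. The medians of the lists lie between -0.30 and 0.03, and each list holds genes on both sides of 0.

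Supernatant by itself called 0 of the 100 genes against untreated control, and Ifnb1eGFP supernatant against rIFNβ called 0 of 100, but 14 (4 higher and 10 lower) without Ifnb1eGFP supernatant replicate 2. Pooled over both IFNβ states, supernatant raised 1 of the 100, Edem1, which encodes a lectin-like protein of endoplasmic reticulum degradation (0.17, adjusted p = 0.0247). That count was 0 without any 1 of the untreated controls, eGFP supernatant replicates 1 and 2, Ifnb1eGFP supernatant replicate 3 or rIFNβ replicates 1 and 3, 2 without Ifnb1eGFP supernatant replicate 1 and 7 without Ifnb1eGFP supernatant replicate 2. Other genes near it in that ordering were Slc38a2 (0.17, adjusted p = 0.0765) and Slc1a5 (-0.19, adjusted p = 0.11), which did not pass.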

How the data were processed

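From TruSeq Stranded Total RNA libraries and RSEM (1.3.3) the authors deposited expected counts per Ensembl gene for 12 libraries, without normalization or filtering. The methods join the names of 2 builds (GRCm39 and mm10); gene positions here are from GENCODE on GRCm39. Expected counts were rounded to whole numbers (12% of values were not whole). In R 4.3.3, edgeR 4.0.16 was used with filterByExpr (15033 genes), TMM factors and 1 quasi-likelihood fit over all libraries without covariates, with Benjamini-Hochberg adjustment over all genes tested. A gene was called at an adjusted p of at most 0.05. SE was the size of the log2 fold change over the square root of F, and intervals are approximate. CPM used TMM-scaled totals, and log2 CPM a prior count of 2. No exact permutation test was used, since 0.1 is the smallest p it allows for 3 against 3 libraries.

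The genes and lists were chosen with earlier results of these data known. Named were all 10 genes, the 4 eIF2α kinases and Ppp1r15a, the 3 genes of each list with the smallest adjusted p between the supernatants and the 2 with the smallest for the pooled supernatant effect, and the 3 genes most like each of the 10 by Pearson's r. Some of the genes this rule takes are not reported here. Genes outside this rule are said to be so, apart from the overlapping neighbours of Ddit3 and marker sums. Alternatives were DESeq2 1.42.0 (also the tool of the study), scaling by RLE factors, no filter, a replicate block, only the compared conditions in the fit, each library left out, and a log2 fold change of 1 or more in size. The edgeR script was tested on simulated data. The mice of each condition are biological replicates in the study's description. Leaving out each library for the counts of the lists was added after seeing the data.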

Additional observations from a re-analysis of the deposited data

How the results depend on the processing

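The 8 calls for Ifnb1eGFP against eGFP supernatant and the 8 for rIFNβ against untreated control stayed at 8, with 5 higher and 3 lower, under DESeq2, RLE factors, no filter, the replicate block, only the compared conditions, and with each library left out (8 to 8). Of 340 recomputed values of the 10 genes in these comparisons 330 kept their direction and side of the threshold, and the 10 that changed sign were of Chac1 and Asns, which were not called. With a log2 fold change of 1 or more in size also required, 3 genes (2 higher, 1 lower) and 4 genes (3 higher, 1 lower) were left. Under DESeq2, 1 of the 10 genes was called for eGFP supernatant against untreated control (Psat1, adjusted p = 0.031), and of the listed genes 1 was called there, 1 for Ifnb1eGFP supernatant against rIFNβ and 3 for the pooled supernatant effect.

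Values that changed sign were not called in any of these fits. Chac1 between the supernatants was -0.015 under DESeq2, -0.02 under RLE factors and -0.0029 without a filter. The pooled supernatant value of Atf4 was 0.00083 under DESeq2, 0.0014 under RLE factors and 0.013 without a filter. With each library left out in turn, Chac1 ran from -0.194 to 0.419 between the supernatants, -0.0055 to 0.307 for rIFNβ, -0.459 to 0.154 for eGFP supernatant against untreated control, -0.412 to 0.029 for Ifnb1eGFP supernatant against rIFNβ and -0.373 to 0.24 for the interaction. Asns ran from -0.092 to 0.012 for rIFNβ. For eGFP supernatant against untreated control Asns ran from -0.072 to 0.062, Atf4 from -0.0072 to 0.107, Nupr1 from -0.06 to 0.202, Phgdh from -0.114 to 0.11 and Sesn2 from -0.0062 to 0.093. Psat1 ran from -0.032 to 0.044 for Ifnb1eGFP supernatant against rIFNβ, where 0 to 1 of the 10 genes were called, and Ddit3 from -0.193 to 0.043 for the interaction. The pooled supernatant values ran from -0.035 to 0.022 for Atf4, -0.025 to 0.028 for Atf3 and -0.119 to 0.012 for Nupr1. Of the listed genes, with each library left out (chosen after seeing the data), 56 to 68 were called between the supernatants, 58 to 67 for rIFNβ, 0 to 14 for Ifnb1eGFP supernatant against rIFNβ and 0 to 7 for the pooled supernatant effect. What moved these values beyond the library left out was not tested.

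The replicate numbers were not treated as pairs, since 5 of 18 same-numbered pairs of libraries had correlations of their deviations of at most 0.1. Those 18 pairs had a mean of 0.148 (range 0.0582 to 0.252), and the 36 pairs with unlike numbers a mean of -0.0742 (range -0.318 to 0.147). Same-numbered libraries were thus more alike on average, and 11 of 12 libraries correlated best with their own number. With the replicate block the calls among the 10 genes were 8, 8, 0, 0, 0 and 0, the block changed none of them, the lists had 66, 65, 0, 0 and 1 called, the pooled value of Atf3 was -0.000043, and over all genes eGFP supernatant against untreated control called 89 higher and 33 lower in place of 37 and 8.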
